A study of Mus musculus with 9 samples.

Results

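The core circadian clock genes were examined in the livers of ethanol-fed mice. These were *Arntl*, *Npas2*, *Clock*, *Per1*, *Per2*, *Per3*, *Cry1*, *Nr1d1*, *Nr1d2* and *Dbp*, taken by gene symbol. All 10 members were found among the 55401 genes of the RNA-seq table. A mean of at least 0.5 FPKM (a fragment count divided by transcript length and by library size) over all livers was reached by 8 of the 10 members and by 12350 genes in all, and these were the genes tested.

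The study asked what the liver of an ethanol-fed mouse is like when myeloid cells lack *Ncf1*, which encodes p47phox, a cytosolic part of the NADPH oxidase of phagocytes. Livers of 4 Ncf1Lyz-/- mice (genotype Ncf1-fl/fl-Lyz-Cre+; libraries NKO2 to NKO5) were compared with livers of 5 WT mice (genotype Ncf1-fl/fl; libraries WT1 to WT4 and WT6). The WT mice were littermates without Cre, so both groups carried the floxed allele. All were female C57BL/6 mice of 10 to 12 weeks, given 5 days of liquid diet, then 10 days of diet with 5% ethanol, then 1 gavage of ethanol at 5 g/kg, and were killed 9 hours later. Lyz-Cre acts in myeloid cells, while hepatocytes, which make up most of the liver's RNA, keep *Ncf1* intact. All livers came from a single time after the gavage, so levels, but not rhythms, were measured.

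The circadian clock is a loop of transcription factors present in nearly every cell. CLOCK or its relative NPAS2 pairs with BMAL1, the product of *Arntl*, and the pair binds E-boxes to switch on the *Per*, *Cry*, *Nr1d* and *Dbp* genes. PER and CRY proteins then block the pair, REV-ERB proteins (from *Nr1d1* and *Nr1d2*) silence *Arntl*, and DBP acts at D-boxes of output genes. In mouse liver *Arntl* therefore runs nearly opposite in phase to *Dbp* and *Nr1d1*, and feeding time is a strong cue for all of them.

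Depth, recovered from the smallest FPKM steps of 15108 genes with a single exon, was 18.6 to 20.1 M fragments (M, mega) in the 4 Ncf1Lyz-/- libraries. WT1 and WT2 had 18.1 and 18.6 M, while WT3, WT4 and WT6 had 15.2 to 15.9 M and more genes listed as absent (35297 to 35437, against 34248 to 34595 in the other 6). No Ncf1Lyz-/- library fell in the lower-depth set, so comparisons are also given within the 6 higher-depth libraries (4 Ncf1Lyz-/- and 2 WT). In that subset the median log2 fold change of all tested genes was −0.11, against 0.0030 in all 9 livers. *Ncf1* itself had 0.368, 0.333, 0.440 and 0.885 FPKM in Ncf1Lyz-/- livers, against 1.83, 1.16, 0.492, 0.366 and 1.10 FPKM in WT livers, so the groups overlapped (exact permutation test, p = 0.175). The overlap came through WT3 and WT4, both of lower depth. The log2 fold change of *Ncf1* was −0.74 over all livers and −1.44 within the higher-depth libraries. Summed hepatocyte markers, 6 of 6 present in every library, were 47807 to 61845 FPKM in Ncf1Lyz-/- livers and 44947 to 57316 FPKM in WT livers.

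None of the 8 tested members passed an adjusted p of 0.05 in limma, where 1 of 12350 genes (0.0081%) did. At an unadjusted p under 0.05, 1 member, *Per1*, was lower in Ncf1Lyz-/- livers, against 3.73% of all tested genes, and 0 members were higher, against 2.17%. The groups were fully separated for 0 members. Among all tested genes every Ncf1Lyz-/- value lay above every WT value for 0.713%, and below every WT value for 1.5%. By sign, 5 members were higher and 5 lower, with a median log2 fold change of 0.01, where 6235 tested genes were higher and 6115 lower. Fewer cells of a type and less RNA per cell cannot be told apart in RNA from whole liver, here and in what follows.

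**Figure D1:**
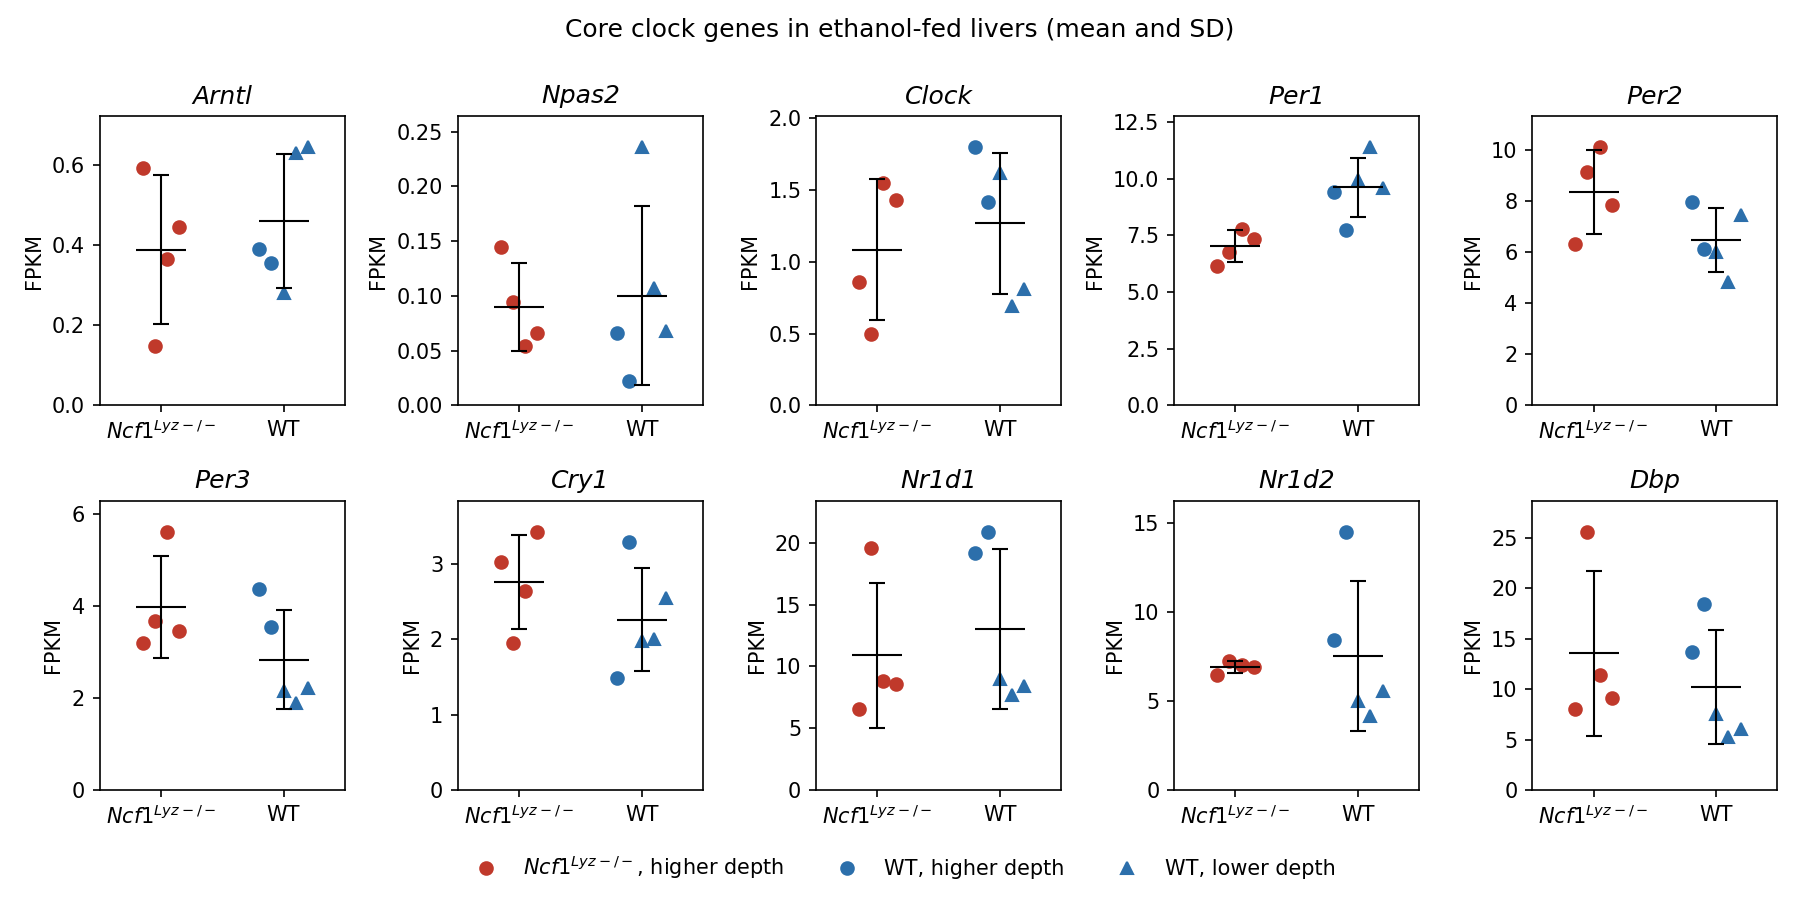
FPKM of each core clock gene (linear axes from 0), with 1 point per liver, Ncf1Lyz-/- left and WT right, lines for the mean and bars for the SD; triangles are the WT libraries of lower depth. *Per1* overlapped only through NKO4 (7.80 FPKM) and WT2 (7.73 FPKM), while *Nr1d1* and *Dbp* were high in NKO3, WT1 and WT2.

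The level of the members spanned from *Nr1d1*, with a mean of 12.1 ± 5.94 FPKM (SD over 9 livers), to *Npas2*, with 0.0955 ± 0.0633 FPKM. In between came *Dbp* at 11.7 ± 6.65 FPKM, *Per1* at 8.47 ± 1.72 FPKM, *Per2* at 7.30 ± 1.67 FPKM, *Nr1d2* at 7.25 ± 3.02 FPKM, *Per3* at 3.35 ± 1.18 FPKM, *Cry1* at 2.48 ± 0.677 FPKM, *Clock* at 1.19 ± 0.471 FPKM and *Arntl* at 0.429 ± 0.168 FPKM. The repressors and *Dbp* were thus above the activators in mean FPKM, a scale that divides by transcript length. Of the steps between neighbours in this order, only those from *Nr1d2* to *Per3*, from *Clock* to *Arntl* and from *Arntl* to *Npas2* held in 9 of 9 livers. *Nr1d1* was above *Dbp* in 5 of 9 livers, *Dbp* above *Per1* in 6, *Per1* above *Per2* in 5, and *Per2* above *Nr1d2* in 6, so each of these neighbours overlapped within the spread between livers. The highest liver had 1.86 times the FPKM of the lowest for *Per1*, the steadiest member, against 4.86 times for *Dbp*.

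Of the positive arm, all 3 members had lower mean FPKM in Ncf1Lyz-/- livers, and none of the differences exceeded the spread between livers. *Arntl* (ENSMUSG00000055116; GRCm38 chr7:113207465-113314126, + strand) encodes BMAL1, the obligate partner in the activating pair. It had 0.594, 0.148, 0.366 and 0.447 FPKM in Ncf1Lyz-/- livers, against 0.391, 0.356, 0.281, 0.631 and 0.646 FPKM in WT livers. NKO3 was the lowest of all livers and WT6 the highest, and the groups overlapped. The means were 0.389 ± 0.186 FPKM (SD, n = 4) and 0.461 ± 0.167 FPKM (SD, n = 5), a log2 fold change of −0.24 on the log2(FPKM + 0.1) scale (exact permutation test, p = 0.532), and 0.05 without NKO3. *Arntl* stayed under the minimum of the limma fit, and its values correspond to about 12 to 45 fragments per liver.

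The *Arntl* gene is known to be silenced by REV-ERB proteins at elements near its start, whose core is AGGTCA. The windows of 250 bases before to 50 after a gene's start were searched on both strands for this core, with 9 of the 10 members, all but *Per2*, matched to 13 windows (RefSeq, GRCm38.p6). The core was in 4 of the 13 windows, of *Clock*, *Arntl*, *Per1* and *Nr1d2*, and in 16.3% of all 32851 windows. It is shown for *Arntl*, in capitals, because *Arntl* is the known target of *Nr1d1*, whose levels are compared with it below. It begins at base 32 of the transcript, in chr7:113207530-113207553, + strand, and a match of letters does not show a bound site.
Arntl: aaggcagaaagtAGGTCAgggacg

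*Clock* (ENSMUSG00000029238; chr5:76209868-76304792, − strand) encodes the DNA-binding partner of BMAL1. Its level was 0.860, 0.50, 1.55 and 1.43 FPKM in Ncf1Lyz-/- livers, against 1.80, 1.42, 1.62, 0.692 and 0.807 FPKM in WT livers. NKO3 was again the lowest liver, and both groups held livers above and below 1 FPKM. The log2 fold change was −0.23 (standard error, SE, 0.37, 95% confidence interval, CI, −1.06 to 0.60, limma adjusted p = 0.951), and it was 0.06 without NKO3. *Npas2* (ENSMUSG00000026077; chr1:39193731-39363236, + strand), which can stand in for CLOCK, had 0.0541 to 0.145 FPKM in Ncf1Lyz-/- livers and 0.0224 to 0.236 FPKM in WT livers. These levels amount to about 2 to 15 fragments per liver, so a difference could be missed at this depth (log2 fold change −0.01, exact permutation test, p = 0.976).

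The negative arm was split: *Per1* had lower values in Ncf1Lyz-/- livers, while *Per2*, *Per3* and *Cry1* had higher means there. The median log2 fold change of the 4 genes was 0.33, and 0.11 within the higher-depth libraries. Only *Per1* had an interval that left out 0. Its proteins and those of its relatives form the repressor complex, and *Per1* and *Per2* also respond quickly to feeding, glucocorticoid and cAMP signals.

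Stretches of 100 bases before a start of *Per1*, *Cry1* and *Per3* hold letters that match the E-box or the D-box. Whether these sites are bound is not shown by a match. The E-box, CACGTG, which reads the same on both strands, was found in 2 of the 13 windows, those of *Cry1* and *Per1*, and in 7.15% of all windows. The D-box, searched as TTATGTAA or TTACGTAA on both strands, was found in the window of *Per3* alone, at 2 positions, and in 1.06% of all windows. Capitals mark the E-box 166 bases before the start of a *Per1* transcript (chr11:69098736-69098835, + strand; within the annotated gene, before a later start), the E-box 60 bases before the start of *Cry1* (chr10:85185062-85185161, − strand), and the D-boxes 205 and 158 bases before the start of *Per3* (chr4:151044793-151044892, − strand). No match in a window says only that these letters are not in it.
Per1: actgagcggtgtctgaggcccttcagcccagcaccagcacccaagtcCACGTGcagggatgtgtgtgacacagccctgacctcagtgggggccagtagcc
Cry1: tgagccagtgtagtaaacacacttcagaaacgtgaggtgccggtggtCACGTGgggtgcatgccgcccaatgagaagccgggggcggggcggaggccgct
Per3: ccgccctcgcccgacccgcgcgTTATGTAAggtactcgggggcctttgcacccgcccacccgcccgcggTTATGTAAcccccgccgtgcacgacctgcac

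*Per1* (ENSMUSG00000020893; chr11:69095217-69109960, + strand) had 6.16, 6.76, 7.80 and 7.34 FPKM in Ncf1Lyz-/- livers, against 9.43, 7.73, 9.96, 11.4 and 9.58 FPKM in WT livers. Every Ncf1Lyz-/- liver was below 4 of the 5 WT livers, and only NKO4 passed WT2. The means were 7.02 ± 0.712 FPKM (SD, n = 4) and 9.63 ± 1.32 FPKM (SD, n = 5). The log2 fold change was −0.45 (SE 0.13, 95% CI −0.74 to −0.15), or 1.36-fold higher in WT. It ranked 109 of 12350 genes by p (limma, unadjusted p = 0.00683), which did not pass the adjustment over all genes (adjusted p = 0.768), and the exact permutation test gave p = 0.0238, where 0.00794 is the smallest possible. Within the higher-depth libraries it was −0.29, and limma's unadjusted p of 0.131 (adjusted p = 0.913) no longer passed 0.05. With the depth set as a term, chosen after seeing the data, it was −0.29 again by construction, as no Ncf1Lyz-/- library is in the lower-depth set. Only the p-value could differ there (limma, unadjusted p = 0.0895, adjusted p = 0.739), and it did not pass either. With 1 library left out at a time the log2 fold change lay between −0.52 and −0.38.

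*Per2* (ENSMUSG00000055866; chr1:91415982-91459324, − strand) had 6.32, 9.13, 10.1 and 7.85 FPKM in Ncf1Lyz-/- livers, against 7.95, 6.11, 5.99, 4.81 and 7.46 FPKM in WT livers. NKO3 and NKO4 were above every WT liver, and NKO2 and NKO5 lay among the WT values. For *Per2* the log2 fold change was 0.36 (SE 0.18, 95% CI −0.04 to 0.77, limma adjusted p = 0.872), on the opposite side of 0 from *Per1*. It was 0.24 within the higher-depth libraries.

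*Per3* (ENSMUSG00000028957; chr4:151003652-151044665, − strand), whose loss has milder effects on the mouse clock than loss of the other *Per* genes, had 3.19, 3.68, 5.62 and 3.46 FPKM in Ncf1Lyz-/- livers, against 4.37, 3.55, 2.16, 1.90 and 2.22 FPKM in WT livers. The 3 lowest livers were WT3, WT4 and WT6, the lower-depth libraries, while WT1 and WT2 lay among the Ncf1Lyz-/- values. Over all livers the log2 fold change was 0.51 (SE 0.27, 95% CI −0.09 to 1.11, limma adjusted p = 0.890), and within the higher-depth libraries it was −0.02. Between the WT sets, higher-depth minus lower-depth, the log2 difference was 0.88, larger than that between genotypes.

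*Cry1* (ENSMUSG00000020038; chr10:85131700-85185064, − strand), the strong transcriptional repressor of the complex, had 3.03, 1.95, 2.64 and 3.43 FPKM in Ncf1Lyz-/- livers, against 1.49, 3.30, 1.98, 2.0 and 2.55 FPKM in WT livers. NKO5 was the highest liver and WT1 the lowest, with WT2 close to the top. In *Cry1* the log2 fold change was 0.30 (SE 0.24, 95% CI −0.23 to 0.82, limma adjusted p = 0.902), and 0.27 within the higher-depth libraries.

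**Figure D2:**
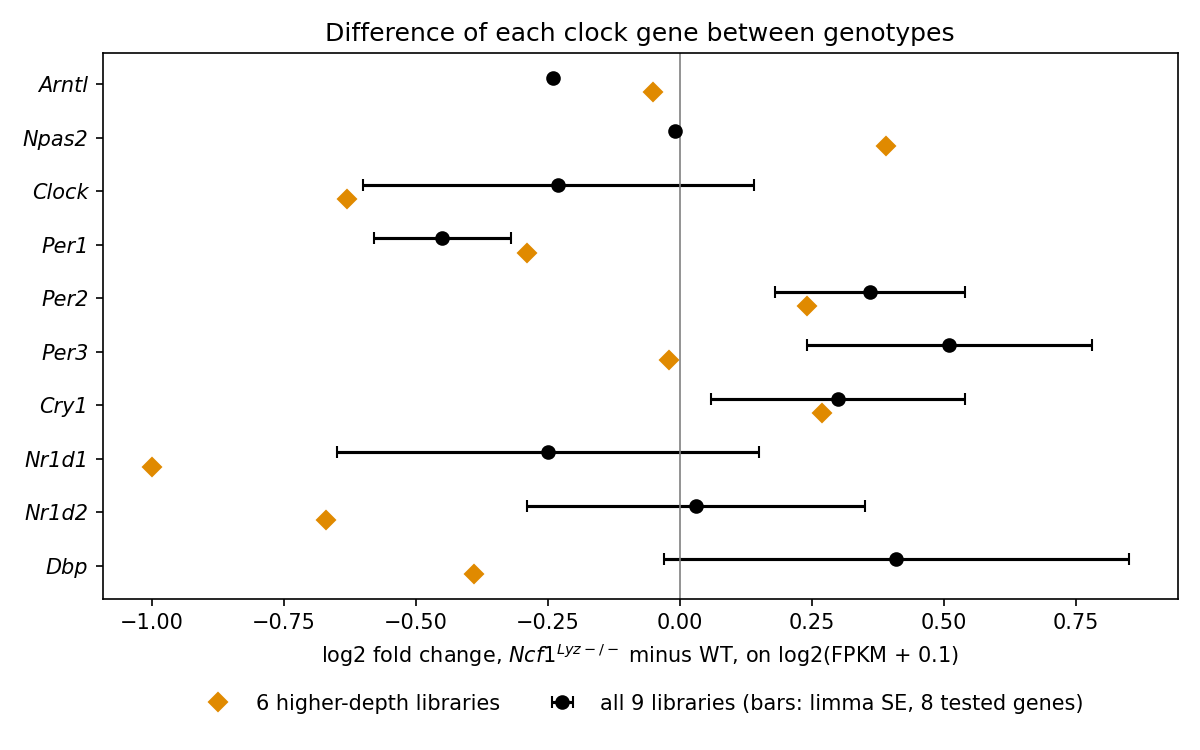
Log2 fold change of each clock gene, Ncf1Lyz-/- minus WT, on the log2(FPKM + 0.1) scale; black points are all 9 libraries with limma standard errors for the 8 tested genes, and orange diamonds are the 6 higher-depth libraries. *Dbp* was at 0.41 over all livers and −0.39 within the higher-depth libraries, while *Per1* was below 0 in both, at −0.45 and −0.29.

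For the REV-ERB genes and *Dbp*, the means of the genotypes were closer together than the SD among WT livers. *Nr1d1* (ENSMUSG00000020889; chr11:98767932-98775333, − strand) encodes REV-ERBα, the repressor of *Arntl*. It had 6.59, 19.6, 8.82 and 8.60 FPKM in Ncf1Lyz-/- livers, against 19.2, 20.9, 8.98, 7.67 and 8.42 FPKM in WT livers. NKO3, WT1 and WT2 stood near 20 FPKM and the other 6 livers stayed under 9 FPKM, so the same levels were reached in both genotypes. Its log2 fold change was −0.25 (SE 0.40, 95% CI −1.14 to 0.64, limma adjusted p = 0.951). Within the higher-depth libraries, where both WT livers are high, it was −1.0, with an adjusted p of 0.897.

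*Nr1d2* (ENSMUSG00000021775; chr14:18204054-18239127, − strand) encodes REV-ERBβ, a close relative with overlapping function. It had 6.45, 7.26, 7.04 and 6.91 FPKM in Ncf1Lyz-/- livers, against 8.42, 14.5, 4.98, 4.13 and 5.57 FPKM in WT livers. The Ncf1Lyz-/- livers were close together, at 6.92 ± 0.340 FPKM (SD, n = 4), with 2 WT livers above them and 3 below, at 7.53 ± 4.24 FPKM (SD, n = 5). The difference of the groups was near 0, at a log2 fold change of 0.03 (SE 0.32, 95% CI −0.68 to 0.74, limma adjusted p = 0.993). All 4 Ncf1Lyz-/- livers were below both higher-depth WT livers (log2 fold change −0.67, adjusted p = 0.867), and above all 3 lower-depth ones.

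*Dbp* (ENSMUSG00000059824; chr7:45705088-45710203, + strand) is a direct target of the activating pair and itself a transcription factor of rhythmic output genes in liver. Its level was 8.01, 25.6, 11.4 and 9.13 FPKM in Ncf1Lyz-/- livers, against 13.7, 18.4, 7.54, 5.27 and 6.05 FPKM in WT livers. NKO3 was the highest liver, WT1 and WT2 followed, and the lower-depth WT libraries were the 3 lowest. The means were 13.5 ± 8.18 FPKM (SD, n = 4) and 10.2 ± 5.66 FPKM (SD, n = 5), with a log2 fold change of 0.41 (SE 0.44, 95% CI −0.57 to 1.39, limma adjusted p = 0.927). Without NKO3 it was 0.05, and within the higher-depth libraries it was −0.39.

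The summed level of Kupffer cell and macrophage markers, 8 of 8 present in every library, was also highest in the livers with high *Nr1d1*. It was 190 FPKM in NKO3, with 86.4 to 123 FPKM in the other Ncf1Lyz-/- livers, and 234 and 231 FPKM in WT1 and WT2, with 69.4 to 115 FPKM in the other WT livers. Endothelial and stellate marker sums were highest in the same livers, by narrower margins. For endothelial markers NKO3, WT1 and WT2 had 45.3, 40.4 and 48.7 FPKM, with WT6 next at 40.2 FPKM. For stellate markers they had 43.6, 43.9 and 56.0 FPKM, with NKO5 next at 43.0 FPKM. The part of these cell types in the levels of *Nr1d1* and *Dbp* was not tested, and neither was that of depth. Neutrophil markers, of which 3 of 6 were present in every library and *Ly6g*, *Retnlg* and *Mpo* were absent in some, summed to 3.30 to 19.9 FPKM in Ncf1Lyz-/- livers and 5.00 to 11.0 FPKM in WT livers. NKO3, the liver with the most *Dbp*, had the lowest neutrophil sum.

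The ratio of *Dbp* to *Arntl*, which run opposite in phase, was computed within each liver as a log2 difference. It was 3.55, 6.70, 4.62 and 4.08 in Ncf1Lyz-/- livers, against 4.81, 5.34, 4.32, 2.88 and 3.04 in WT livers. NKO3 had the highest ratio and WT4 the lowest, and the other livers of both groups lay between them. The mean was 4.74 ± 1.38 (SD, n = 4) in Ncf1Lyz-/- livers and 4.08 ± 1.09 (SD, n = 5) in WT livers, a difference of 0.65 (exact permutation test, p = 0.468). Without NKO3 the difference was 0.00, and within the higher-depth libraries it was −0.34 (exact permutation test, p = 0.8, with 0.0667 the smallest possible).

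The members were also compared with one another across the 9 livers. Of 45 pairs, 6 had an unadjusted p under 0.05 for Pearson's r on the log scale, and 0 passed after adjustment over the pairs, whereas 1 passed for Spearman's rho. The livers share genotype and depth sets, which also enter these values. No correlation was computed within a genotype, as each has fewer than 6 livers.

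*Nr1d1* and *Dbp* varied together, with r = 0.86 (exact permutation p = 0.00334, adjusted 0.15) and rho = 0.80 (p = 0.0138, adjusted 0.104). Without NKO3 and WT2, r was 0.69, and in the 6 higher-depth libraries it was 0.88. *Nr1d2* and *Dbp* had r = 0.75 (exact permutation p = 0.0178, adjusted 0.16) and rho = 0.93 (p = 0.00075, adjusted 0.0337), the pair that passed. Its r was 0.68 without WT2 and WT4, and 0.48 in the higher-depth libraries.

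*Arntl* and *Dbp* varied in opposite directions, with r = −0.80 (exact permutation p = 0.00881, adjusted 0.151) and rho = −0.72 (p = 0.0369, adjusted 0.184). NKO3 had both the least *Arntl* and the most *Dbp*. Without NKO3 and WT6, r was −0.53, and in the higher-depth libraries, which include NKO3, it was −0.91. *Per2* and *Per3* had r = 0.78 (exact permutation p = 0.0137, adjusted 0.154) and rho = 0.87 (p = 0.00451, adjusted 0.0911), with r = 0.45 without NKO4 and WT4, and 0.74 in the higher-depth libraries.

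**Figure D3:**
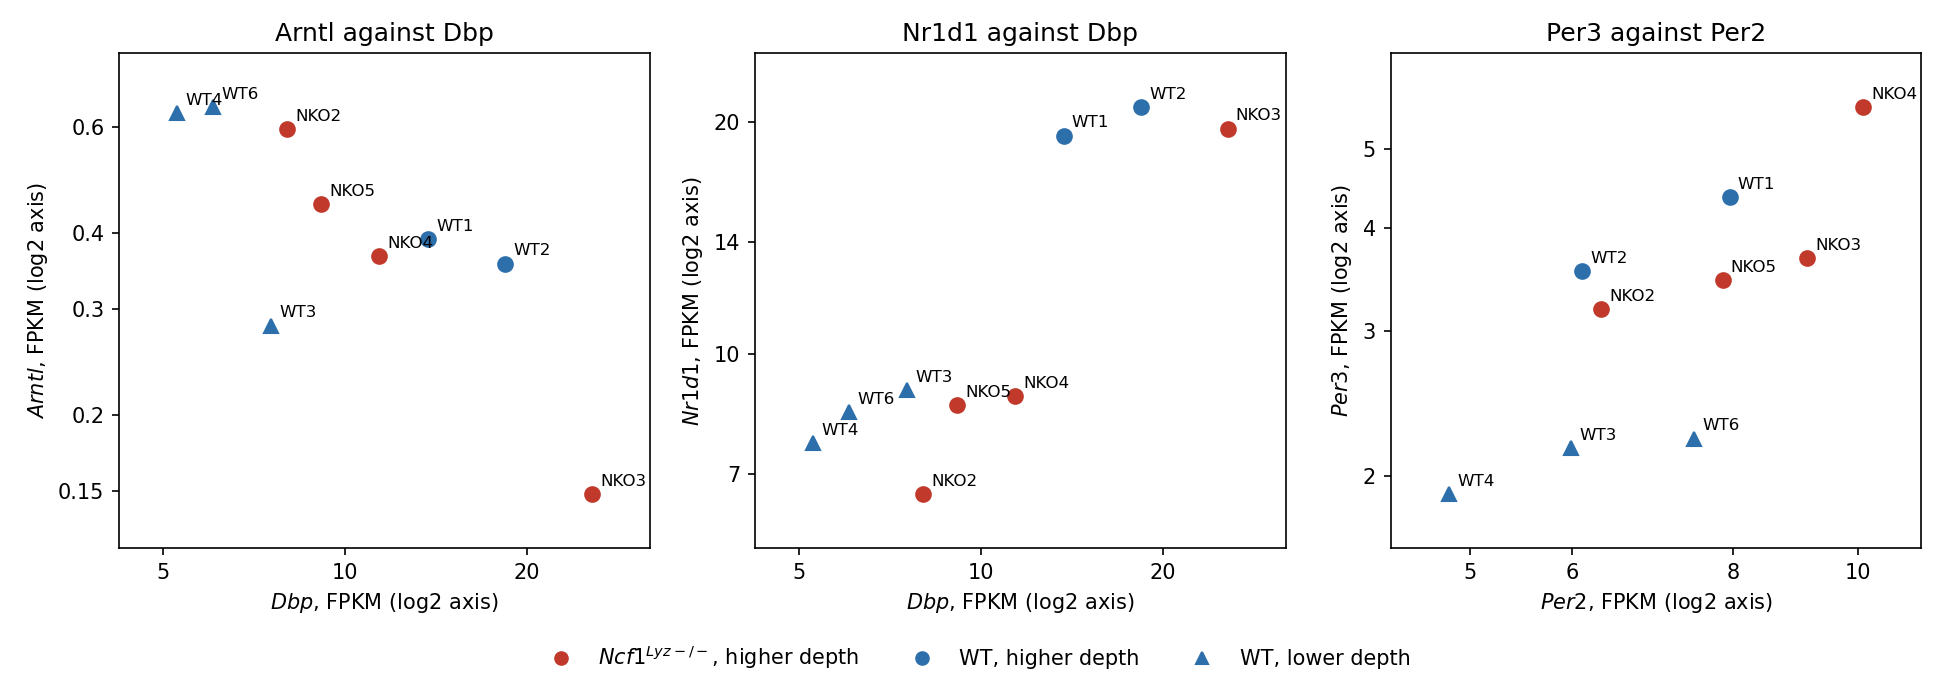
*Arntl* against *Dbp*, *Nr1d1* against *Dbp*, and *Per3* against *Per2*, in FPKM on log2 axes, with 1 labelled point per liver; red points are Ncf1Lyz-/- and blue points WT, with triangles for lower depth. NKO3 sits alone at 25.6 FPKM of *Dbp* and 0.148 FPKM of *Arntl*, and WT1, WT2 and NKO3 form the upper end for *Nr1d1*.

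Genes around the core loop were read from a list of 20 other clock factors, of which 18 were tested. None passed the adjusted threshold, 2 were higher at an unadjusted p under 0.05, *Hlf* among them, and 0 lower, against 2.17% and 3.73% of all tested genes. By sign, 10 were higher and 8 lower, or 9 and 9 within the higher-depth libraries. The median log2 fold change was 0.14, or 0.03 within the higher-depth libraries. *Hlf*, which encodes a factor of the same family as DBP, had 3.89, 5.25, 4.07 and 4.38 FPKM in Ncf1Lyz-/- livers, against 3.58, 3.87, 2.98, 3.46 and 3.38 FPKM in WT livers. Every Ncf1Lyz-/- liver was above every WT liver, NKO2 only just above WT2, a separation seen for 0.713% of all tested genes. The log2 fold change of *Hlf* was 0.34 (SE 0.13, limma adjusted p = 0.839), and 0.22 within the higher-depth libraries. *Tef*, the other relative of *Dbp*, had 13.3 ± 4.22 FPKM in Ncf1Lyz-/- livers and 8.33 ± 3.64 FPKM in WT livers (limma adjusted p = 0.844 for a log2 fold change of 0.74), which was 0.14 within the higher-depth libraries. *Prmt5*, an arginine methyltransferase, had 4.13 FPKM on average in Ncf1Lyz-/- livers and 3.46 FPKM in WT livers (limma adjusted p = 0.872 for a log2 fold change of 0.25).

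Of 20 symbols listed for clock output genes of liver, *Ccrn4l* was not found and the other 19 were tested. None passed the adjusted threshold, 2 were higher at an unadjusted p under 0.05 and 0 lower, against 2.17% and 3.73% of all tested genes. By sign, 12 were higher and 7 lower, or 14 and 5 within the higher-depth libraries. The median log2 fold change was 0.21, or 0.31 within the higher-depth libraries. *Cyp2a5*, a cytochrome P450 whose rhythm in mouse liver depends on the DBP family, had 962 ± 136 FPKM in Ncf1Lyz-/- livers (SD, n = 4), against 630 ± 124 FPKM in WT livers (SD, n = 5). Its log2 fold change was 0.62 (SE 0.15, limma adjusted p = 0.605), and 0.74 within the higher-depth libraries. *Wee1*, a cell cycle kinase gene driven by E-boxes, had 4.36 ± 1.0 FPKM in Ncf1Lyz-/- livers and 3.14 ± 0.376 FPKM in WT livers (limma adjusted p = 0.839 for a log2 fold change of 0.44). For *Noct*, a rhythmic phosphatase gene, the log2 difference between genotypes was −0.69 with all livers and 0.09 with the higher-depth libraries alone, and for *Nampt*, the rate-limiting enzyme of NAD salvage, it was 0.27 and 0.14.

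The liver clock also takes signals from feeding, cAMP and glucocorticoids, and 16 genes that respond to these were tested. None passed the adjusted threshold, and 0 were higher and 5 lower at an unadjusted p under 0.05 (*Sik1*, *Pck1*, *Ppargc1a*, *Tat* and *Nr4a1*), against 2.17% higher and 3.73% lower among all tested genes. By sign, 14 of the 16 were negative over all livers, where 6115 of the 12350 tested genes were. Within the higher-depth libraries 12 of the 16 were negative. This list, like those above, was chosen with earlier results of these data known, so its counts are a description only. The median log2 fold change was −0.35, and −0.72 within the higher-depth libraries. For *Pck1*, *Sik1*, *Ppargc1a* and *Nr4a1* every Ncf1Lyz-/- liver was below every WT liver, each at the smallest exact permutation p of 0.00794, a separation seen for 1.5% of all tested genes. *Pck1*, the gluconeogenic enzyme PEPCK, had 534 ± 227 FPKM in Ncf1Lyz-/- livers (SD, n = 4), against 1226 ± 210 FPKM in WT livers (SD, n = 5), a log2 fold change of −1.27 (SE 0.24, limma adjusted p = 0.475).

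*Sik1* encodes a cAMP-inducible kinase known to restrain resetting of the clock by light. Its level was 6.30 ± 1.68 FPKM in Ncf1Lyz-/- livers and 12.8 ± 3.03 FPKM in WT livers, a log2 fold change of −1.01 (limma adjusted p = 0.498). *Ppargc1a*, a coactivator of the fasting response, had 0.815 ± 0.180 FPKM in Ncf1Lyz-/- livers and 1.57 ± 0.381 FPKM in WT livers, a log2 fold change of −0.86 (limma adjusted p = 0.591). *Nr4a1*, an immediate early nuclear receptor gene, had 1.40 ± 1.11 FPKM in Ncf1Lyz-/- livers and 7.55 ± 7.64 FPKM in WT livers, a log2 fold change of −2.30 (limma adjusted p = 0.783). *Per1*, itself inducible by cAMP and glucocorticoids, had the same sign as these genes, while *Per2*, which responds to the same signals, had the opposite one. Whether these signals had a part in either difference was not tested.

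**Figure D4:**
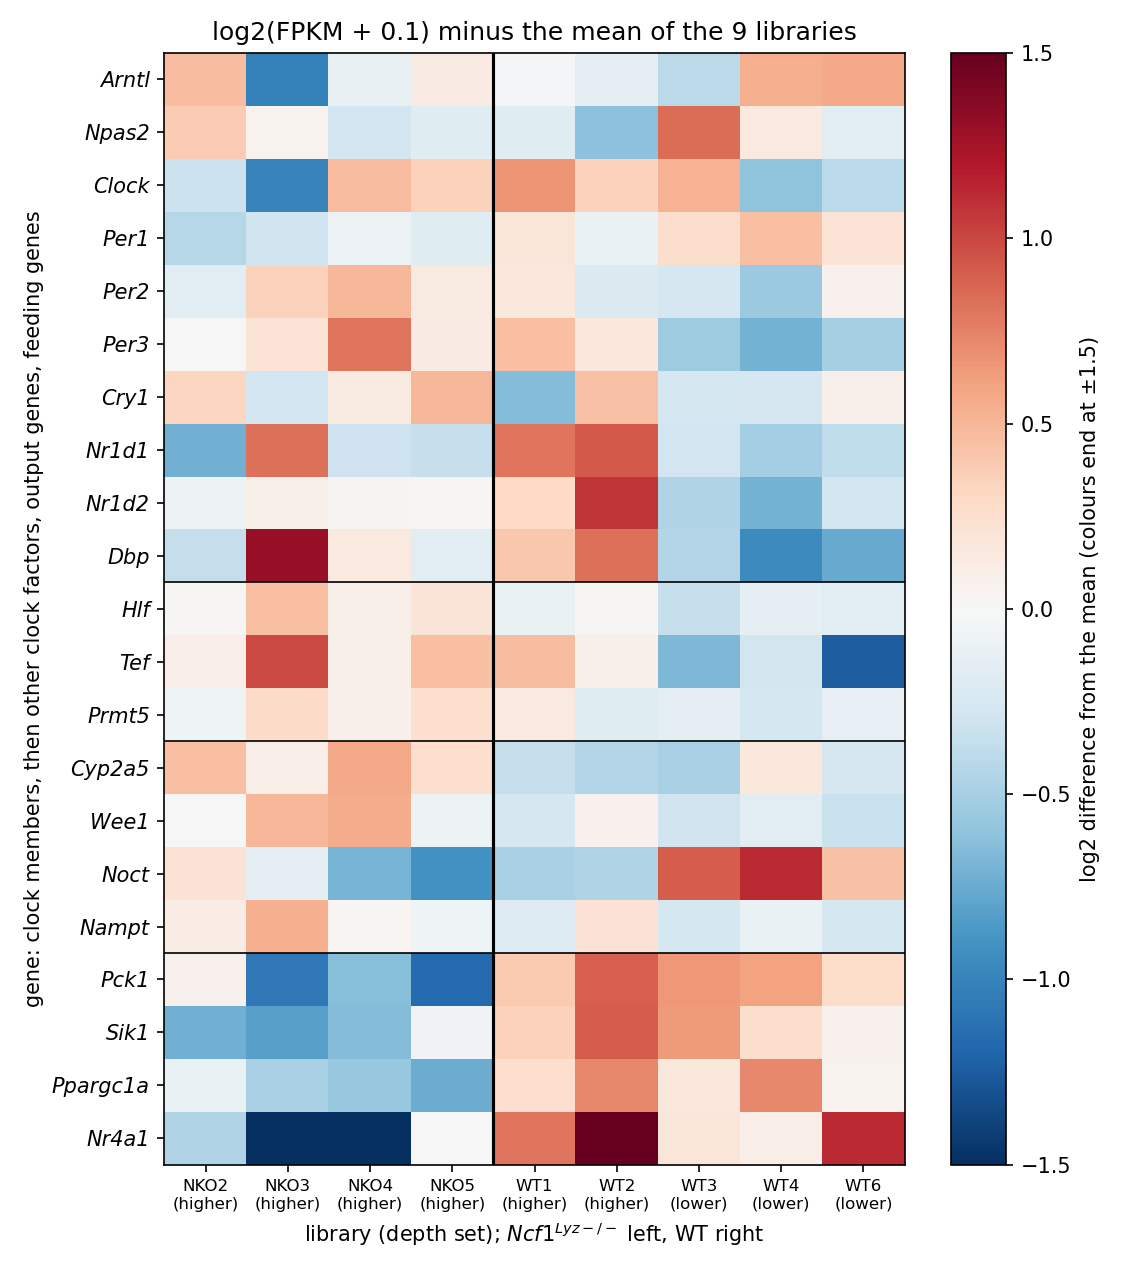
Each gene's log2(FPKM + 0.1) minus its mean over the 9 libraries (rows: clock members, other clock factors, output genes, feeding genes; columns: Ncf1Lyz-/- left of the black line, WT right, depth set in brackets). *Pck1* to *Nr4a1* are lower in the Ncf1Lyz-/- columns, whereas *Nr1d1* and *Dbp* are high in NKO3, WT1 and WT2 and low in WT3, WT4 and WT6. *Nr1d1* is also low in NKO2, NKO4 and NKO5.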

How the data were processed

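Poly(A) RNA of each liver was sequenced as stranded paired ends. HISAT2 and StringTie were the authors' mapping and assembly tools, and their methods name edgeR for expression. The deposited values are the authors' FPKM per gene, with an absent gene listed at 0.0001; the genome build is not given in the sources used here. The 6 columns that hold the authors' own comparison (fold change, its log2, p-value, q-value and calls) were not used. The table holds no counts, so depth was estimated from the steps of 1 fragment in low values of single-exon genes of at least 200 bases, worth 0.0497 to 0.0656 FPKM at 1 kilobase. Lower depth makes low values coarser and lists more genes as absent.

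Columns were placed in groups by name. Ncf1Lyz-/- was compared with WT by limma 3.58.1 (R 4.3.3) with trend and without covariates, using log2(FPKM + 0.1) of the 12350 genes that averaged 0.5 FPKM or more, with Benjamini-Hochberg adjustment over all of them. The scale understates changes of low genes. The steps were tested on simulated data. Single genes and ratios were compared by two-sided exact permutation tests over 126 arrangements (scipy 1.17.1, Python 3.11.15), and pairs of members by exact permutation of pairings. Figures were drawn with matplotlib 3.10.9. The p-values for genotypes set a difference against the spread between the livers sequenced, and those for pairs set a correlation against permuted pairings.

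The members and gene lists were chosen with earlier results of these data known. Named genes were the members, *Ncf1*, the 4 genes of smallest p in each list, and the 5 tested genes with the largest Pearson's r to *Dbp* and to *Arntl*, of which 1 is not reported here. Coordinates are from GENCODE M21 on GRCm38, and promoter windows are from RefSeq on GRCm38.p6. Alternatives were pseudocounts of 0.5 and 1, no minimum, a minimum mean of 1 FPKM, median-ratio scaling, no trend, array weights, each library left out, the higher-depth libraries alone and, chosen after seeing the data, the depth set as a term.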

Additional observations from a re-analysis of the deposited data

How the results depend on the processing

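No member passed an adjusted p of 0.05 under any alternative, with adjusted p from 0.267 (*Per1*, array weights) to 1. Of 239 values under alternatives, which include counts of members that have no direction, 19 changed direction. At an unadjusted p under 0.05 there were 2 members with array weights (*Per1* and *Per3*), 2 in the higher-depth libraries and 2 with the depth set as a term, an alternative chosen after seeing the data (*Nr1d1* and *Nr1d2* in both), against 1 in the fit reported. Of the 12350 tested genes, 1401, 660 and 889 passed in these settings, in that order, against 729 in the fit reported. Leaving out 1 library at a time gave 1 to 3 members, 3 without WT1 (*Per1*, *Per2* and *Per3*). Over all tested genes 544 to 1231 passed then, 663 of them without WT1. Groups were fully separated for 1 member, *Nr1d2*, in the higher-depth libraries, and for 0 to 1 with 1 library left out, *Per1* without NKO4 or WT2. For *Per1* this follows from its values, as those 2 livers were its only overlap. Full separation is easier to reach with fewer libraries, and the share of all tested genes separated in these subsets was not computed. These counts are therefore a description only. The log2 fold change turned to 0.13 for *Clock* with array weights. In the higher-depth libraries it turned to 0.39 for *Npas2*, −0.02 for *Per3*, −0.67 for *Nr1d2* and −0.39 for *Dbp*. The depth set as a term gives these same values by construction, because no Ncf1Lyz-/- library is in the lower-depth set. It is therefore not a separate check, and its changes of direction repeat those of the higher-depth libraries. The *Dbp* to *Arntl* difference turned to −0.34 in the higher-depth libraries. The cause was not tested. With 1 library left out, it ranged from −0.44 to 0.05 for *Arntl*, −0.17 to 0.20 for *Npas2*, −0.43 to 0.06 for *Clock*, −0.14 to 0.30 for *Nr1d2*, 0.05 to 0.67 for *Dbp* and 0.00 to 1.05 for the *Dbp* to *Arntl* difference. No paired analysis was possible because the columns' numbers do not match the replicate numbers of the labels. With 4 and 5 livers at a single time the intervals given are wide, so differences may have been missed. The smallest detectable difference was not computed, and few fragments limit *Npas2* and *Arntl* most.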

Other observations

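The genes whose levels over the 9 livers were most like those of *Dbp* were *Fbxo9* (Pearson's r = 0.992), *Eef1g* (0.977), *Gle1* (0.973), *Fahd1* (0.973) and *Tdp2* (0.971). All 5 were highest in NKO3, the liver with the most *Dbp*. Most like *Arntl* were *Gstp2* (0.949), *Esrrg* (0.935), *Tmem126a* (0.916), *Exoc3l2* (0.901) and *Fmo5* (0.899), all lowest in NKO3. These were picked as the largest of all tested genes and are given as a description.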
